A study of Mus musculus with 6 samples.

Results

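The 7 genes of the mouse Reg family, which encode the regenerating islet-derived proteins, were followed in RNA-seq of isolated pancreatic islets: *Reg1*, *Reg2*, *Reg3a*, *Reg3b*, *Reg3d*, *Reg3g* and *Reg4*. They were taken by gene symbol from the 55060 genes of the expression table, and all 7 were present. The table held 3 samples of control mice (Ctrl) and 3 of mice lacking *Parn*, a poly(A)-specific ribonuclease, in β cells (cKO), all at 12 weeks of age. The cKO mice carried *Ins2-cre* and 2 copies of a *Parn* allele with a floxed exon (*Parn* f/f), on a C57BL/6 background. The Ctrl group consisted of *Parn* f/f mice and other littermates, and the labels do not say which control carried *Ins2-cre*. The Cre is driven by the insulin 2 promoter, so deletion is aimed at β cells, whereas islets also hold other endocrine, vascular and immune cells and arrive with attached exocrine tissue. Nothing in the labels says whether the 3 samples of a group came from separate mice, so the p-values measure only the spread between these samples.

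REG proteins are small secreted proteins built around a single C-type lectin domain. In the pancreas, Reg1 is made mainly by acinar cells and is released with the digestive enzymes, Reg2 has been described in both acinar tissue and islets, and the Reg3 proteins are kept low in the resting gland and rise in pancreatitis. Reg3b and Reg3g are best known as antibacterial lectins of the gut epithelium, where cytokines of the IL-6 and IL-22 families induce them through STAT3. Reg4 is mainly a gene of the gut.

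Most of the genes are neighbours. In GRCm38, *Reg3b*, *Reg3d*, *Reg3a*, *Reg2*, *Reg1* and *Reg3g* lay in this order on chromosome 6 between positions 78370657 and 78468872, a span of 98216 bases with no other annotated gene in it. The gaps between neighbours ran from 1843 bases, between *Reg3d* and *Reg3a*, to 37601 bases, between *Reg1* and *Reg3g*. *Reg3d* and *Reg3g* are on the minus strand and the other 4 on the plus strand. *Reg4* stands alone on chromosome 3, from 98222156 to 98236748 on the plus strand.

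Because the 6 neighbours fell into separate patterns across the samples, described further on, the 250 bases before the RefSeq start of 5 of them are shown (GRCm38.p6, 5′ to 3′ on the strand of the gene). Capitals mark the letters searched for: CACCTG, a form of the E-box bound by the acinar factor PTF1A, a longer arrangement of an E-box (CANNTG), 6 further bases and a TTCCC box, and TTCNNNGAA, the element bound by STAT factors. These letters were chosen after the sequences had been seen.
Reg1 (chr6:78425733-78425982, plus strand): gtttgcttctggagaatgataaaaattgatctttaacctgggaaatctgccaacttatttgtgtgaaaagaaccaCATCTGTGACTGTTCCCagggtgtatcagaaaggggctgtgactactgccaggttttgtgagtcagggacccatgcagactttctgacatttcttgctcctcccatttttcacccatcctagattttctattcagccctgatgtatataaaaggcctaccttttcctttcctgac
Reg2 (chr6:78404905-78405154, plus strand): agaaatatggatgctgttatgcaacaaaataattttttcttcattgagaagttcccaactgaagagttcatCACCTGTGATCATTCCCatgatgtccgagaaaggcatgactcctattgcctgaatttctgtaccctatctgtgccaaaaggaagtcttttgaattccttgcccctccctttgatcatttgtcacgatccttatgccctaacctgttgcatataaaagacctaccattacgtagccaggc
Reg3d (chr6:78378866-78379115, minus strand): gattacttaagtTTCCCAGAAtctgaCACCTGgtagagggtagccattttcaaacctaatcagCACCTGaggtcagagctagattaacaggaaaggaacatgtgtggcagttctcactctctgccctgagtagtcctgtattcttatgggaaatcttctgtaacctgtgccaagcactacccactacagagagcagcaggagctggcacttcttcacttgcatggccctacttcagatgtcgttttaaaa
Reg3b (chr6:78370635-78370884, plus strand): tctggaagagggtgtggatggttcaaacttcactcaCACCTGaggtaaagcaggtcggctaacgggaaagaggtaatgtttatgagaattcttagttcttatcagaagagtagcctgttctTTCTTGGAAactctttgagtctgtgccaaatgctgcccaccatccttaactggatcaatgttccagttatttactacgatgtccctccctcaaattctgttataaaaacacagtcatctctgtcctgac
Reg3g (chr6:78468875-78469124, minus strand): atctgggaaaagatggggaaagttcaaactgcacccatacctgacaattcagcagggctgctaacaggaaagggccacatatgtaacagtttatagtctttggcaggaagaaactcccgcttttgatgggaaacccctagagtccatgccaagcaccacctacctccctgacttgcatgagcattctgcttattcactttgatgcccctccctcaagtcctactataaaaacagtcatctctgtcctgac

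*Reg1* and *Reg2* held the long arrangement at nearly the same place, as CATCTGTGACTGTTCCC from 175 to 159 bases before the start of *Reg1* and as CACCTGTGATCATTCCC from 179 to 163 bases before that of *Reg2*. Of 32851 RefSeq promoter windows of the same length, 0.295% held it on either strand. None of the other 5 Reg genes had it, and neither did any of the 26 genes for digestive enzymes and zymogen proteins with a window. With 5 bases in place of 6 between the E-box and the TTCCC box, 3 of the 26 acinar genes (*Cela1*, *Ctrb1* and *Prss1*) and 0 of the 7 Reg genes held it, against 0.341% of all windows. CACCTG, which the *Reg2* copy of the arrangement contains, stood before 5 of the 7 Reg genes (*Reg2*, *Reg3a*, *Reg3b*, *Reg3d* and *Reg4*), before 15 of the 26 acinar genes, and in 17.2% of all windows. TTCNNNGAA was found before *Reg3b* (TTCTTGGAA, 129 to 121 bases before the start) and *Reg3d* (TTCCCAGAA, 238 to 230 bases before), against 7.02% of all windows. *Reg3g* had none of the letters searched for. A match of letters is a description and not a binding site. The RefSeq starts of *Reg1*, *Reg2* and *Reg3b* lie 3272, 9532 and 228 bases inside the gene as the expression table delimits it. For these genes the window therefore precedes 1 of the annotated starts. The windows of *Reg1* and *Reg2* lie wholly, and that of *Reg3b* mostly, within the gene so delimited.

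The upstream windows of *Reg3b* and *Reg3g* matched at 68.9% of aligned bases, more than any other pair of the family, which matched at 47.8% to 58.5%. Over the coding sequences *Reg1* and *Reg2* were the closest pair, with 79.2% identity, followed by *Reg3b* and *Reg3g* with 76.6%. *Reg3a* matched *Reg3b* at 74.1% and *Reg3g* at 73.8%. *Reg3d* matched the other Reg3 genes at 67.7% to 69.5%, and *Reg4* matched the rest at 53.6% to 56.9%. In every pair, the main transcripts shared 0 stretches of 50 bases, so that reads of that length can be told apart between members.

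Levels are given as FPKM (fragments per kilobase of gene, scaled per sample), which allows genes to be compared per length. The scaling totals read back from the values were not the reads on genes. In Ctrl replicate 2 the total was 15731223 against 16470783 reads, and in cKO replicate 2 it was 17386442 against 16289408. *Reg1* was the highest member, with a mean of 897 FPKM over the 6 samples, and ranked from 24th to 65th among all genes of a sample. *Reg2* followed with a mean of 376 FPKM, *Reg3b* with 56.8, *Reg3a* with 38.3, *Reg3d* with 26.7 and *Reg3g* with 3.23. Only the steps from *Reg2* to *Reg3b* and from *Reg3d* to *Reg3g* held in 6 of 6 samples. *Reg1* was above *Reg2* in 5 of 6 samples, *Reg3b* above *Reg3a* in 5 of 6, and *Reg3a* above *Reg3d* in 3 of 6. In FPKM these neighbours thus did not separate beyond their spread. The gene lengths used for FPKM count every exon of every annotated isoform. Per length of the main spliced transcript the mean would be 2.74 times higher for *Reg3g*, at 8.86, 1.46 times higher for *Reg3b* and 1.36 times higher for *Reg2*. The order of the means would stay as given. *Reg3b* would then be above *Reg3a* in Ctrl replicate 3 too (19.2 against 16.8), and so in all samples. Reads on the family made up between 0.0566% and 0.244% of a sample's reads, in libraries of 16289408 to 17944775 reads on genes.

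**Figure D1:**
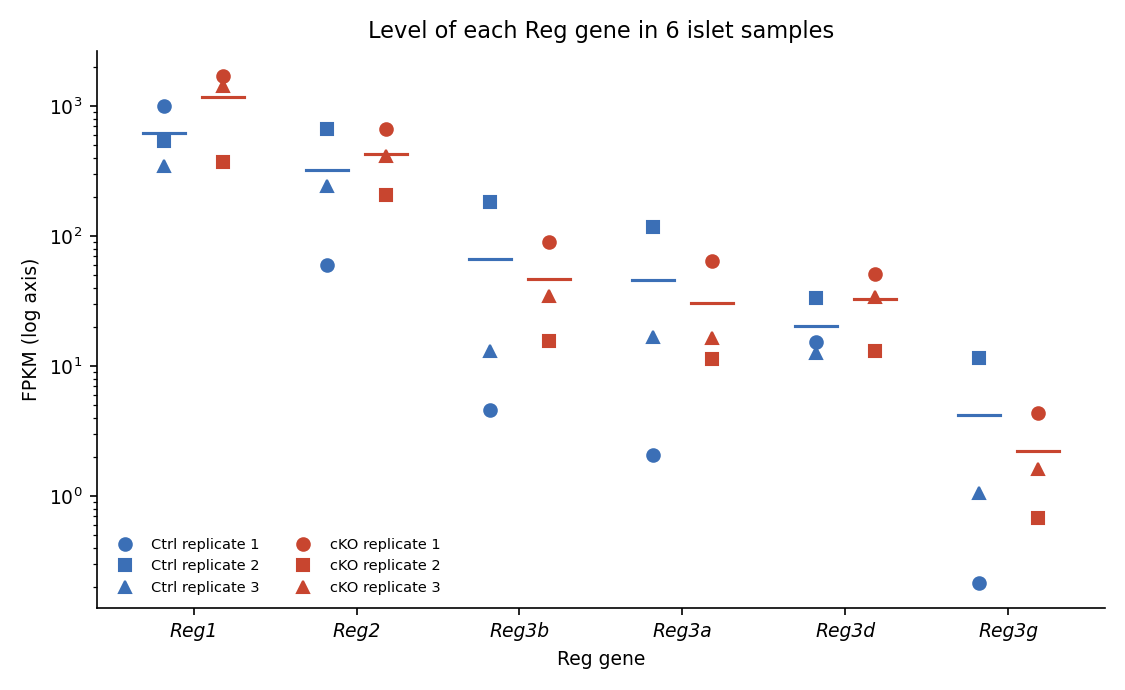
FPKM of the 6 Reg genes with reads, on a log axis, in 3 Ctrl samples (blue) and 3 cKO samples (red). Each point is a sample, its shape the replicate number, and the bars are arithmetic means. The Ctrl and cKO points overlap for all 6 genes, and the Ctrl points of *Reg2*, *Reg3a*, *Reg3b* and *Reg3g* are spread over more than 1 power of 10.

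*Reg1*, the first member to be named and an abundant secretory product of acinar cells, was at 994, 537 and 345 FPKM in the Ctrl samples and at 1703, 375 and 1431 FPKM in the cKO samples (values are given in the order of replicates 1, 2 and 3 throughout). The highest value was 4.93 times the lowest. *Reg2*, the member closest to *Reg1* in coding sequence, was at 60.3, 671 and 242 FPKM in the Ctrl samples and at 661, 209 and 412 FPKM in the cKO samples, an 11.1-fold range. Ctrl replicate 1 was thus the highest Ctrl sample for *Reg1* and the lowest of all samples for *Reg2*.

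*Reg3a* was at 2.08, 119 and 16.8 FPKM in the Ctrl samples and at 64.9, 11.4 and 16.4 in the cKO samples. *Reg3b* was at 4.62, 184 and 13.2 FPKM in the Ctrl samples and at 89.5, 15.6 and 34.5 in the cKO samples. For both, and for *Reg2* and *Reg3g* too, Ctrl replicate 2 was the highest sample, cKO replicate 1 the second highest and Ctrl replicate 1 the lowest. *Reg3g* was at 0.217, 11.5 and 1.05 FPKM in the Ctrl samples and at 4.36, 0.680 and 1.62 in the cKO samples. Its lowest value rested on 8 reads, with an exact 95% counting interval of 0.0936 to 0.427 FPKM, and its highest on 381 reads. The range from lowest to highest was 56.9-fold for *Reg3a*, 39.8-fold for *Reg3b* and 52.8-fold for *Reg3g*. Intervals and floors cover counting error only.

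*Reg3d*, the member nearest in kind to the islet neogenesis-associated protein of hamsters, was at 15.3, 33.7 and 12.5 FPKM in the Ctrl samples and at 51.6, 13.1 and 34.0 in the cKO samples. Its 4.12-fold range was the narrowest of the family. Its highest samples, cKO replicates 1 and 3, were those of *Reg1*. *Reg4* had 0 reads in 6 of 6 samples, which allows at most 0.162 to 0.187 FPKM per sample (a floor of 3 reads).

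Set against other genes, the spread within a group was wide. Within Ctrl, the SD of log2(FPKM + 1) was 2.64 for *Reg3a* and 2.61 for *Reg3b*, and 10 and 11 of the 13363 genes with a mean of at least 1 FPKM had a larger one, while the median gene had 0.17. Within cKO, the 6 genes had SDs of 0.83 to 1.28, above those of 97.8% to 99.3% of genes, with a median gene at 0.13. *Reg1* and *Reg3d* varied less in Ctrl, with SDs of 0.77 and 0.72, which were still above those of 95.2% and 94.8% of genes.

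The design asks whether islet gene expression differs between Ctrl and cKO mice. The targeted gene was checked first. *Parn* was at 6.64, 8.34 and 7.38 FPKM in the Ctrl samples and at 4.97, 4.61 and 6.16 in the cKO samples, a log2 difference of -0.44 (SE 0.131, limma adjusted p = 0.545). The groups did not overlap. The value covers the whole gene, of which a single exon is deleted, in islets that hold other cells beside β cells.

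For the Reg family, no difference between the genotypes was detectable. None of the 6 genes tested passed an adjusted p of 0.05 with limma, and 0 of the 21211 genes tested did (0%), the smallest adjusted p of all genes being 0.274. At an unadjusted p under 0.05, 0 of the 6 Reg genes were higher and 0 lower in cKO, against 4.33% and 3.07% of all genes tested. The samples of the 2 genotypes overlapped for 6 of 6 Reg genes, whereas they did not overlap for 13.1% of all genes. *Reg4* was left out of the test because it had no reads.

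*Reg1* averaged 625 ± 333 FPKM in Ctrl and 1169 ± 702 in cKO (SD, n = 3 each). The log2 difference, cKO minus Ctrl, was 0.77 (SE 0.657, 95% interval -0.81 to 2.35, limma adjusted p = 0.821). *Reg2* averaged 325 ± 314 in Ctrl and 428 ± 227 in cKO, a log2 difference of 0.84 (SE 0.877, interval -1.27 to 2.95, limma adjusted p = 0.856). *Reg3d* averaged 20.5 ± 11.5 and 32.9 ± 19.3, with a log2 difference of 0.59 (SE 0.553, interval -0.74 to 1.91, limma adjusted p = 0.838). These 3 genes had the higher mean in cKO on both the FPKM and the log scale.

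For *Reg3a* and *Reg3b* the scale decided the sign. *Reg3a* had the higher mean FPKM in Ctrl (45.8 ± 63.4 against 30.9 ± 29.6) and the higher log mean in cKO (difference 0.37, SE 1.33, limma adjusted p = 0.968). *Reg3b* did the same, with 67.1 ± 101 FPKM in Ctrl and 46.5 ± 38.4 in cKO and a log2 difference of 0.62 (SE 1.31, limma adjusted p = 0.938). *Reg3g* was lower in cKO on both scales, with 4.24 ± 6.26 and 2.22 ± 1.91 FPKM and a log2 difference of -0.13 (SE 0.891, limma adjusted p = 0.983). The intervals ran from -2.83 to 3.57 for *Reg3a*, from -2.52 to 3.77 for *Reg3b* and from -2.27 to 2.01 for *Reg3g*, so changes of several fold in either direction could not be seen at this spread. In an exact two-sided permutation test of the mean FPKM, which cannot go below 0.1 with 3 samples against 3, the 6 genes gave p between 0.3 and 1.0.

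Single samples of either group turned these values. Without Ctrl replicate 1, the lowest sample of *Reg2*, *Reg3a* and *Reg3b*, the log2 differences of these genes turned to -0.067, -0.93 and -0.44. Without Ctrl replicate 2, their highest sample, they were 1.66, 1.71 and 2.08, and *Reg3g* turned to 0.86. Without cKO replicate 1, *Reg3a* and *Reg3b* turned to -0.35 and -0.012, and without cKO replicate 2, *Reg3g* turned to 0.25. Only *Reg1* and *Reg3d* kept a positive difference whichever sample was left out, with 0.36 to 1.45 and 0.17 to 1.12.

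**Figure D2:**
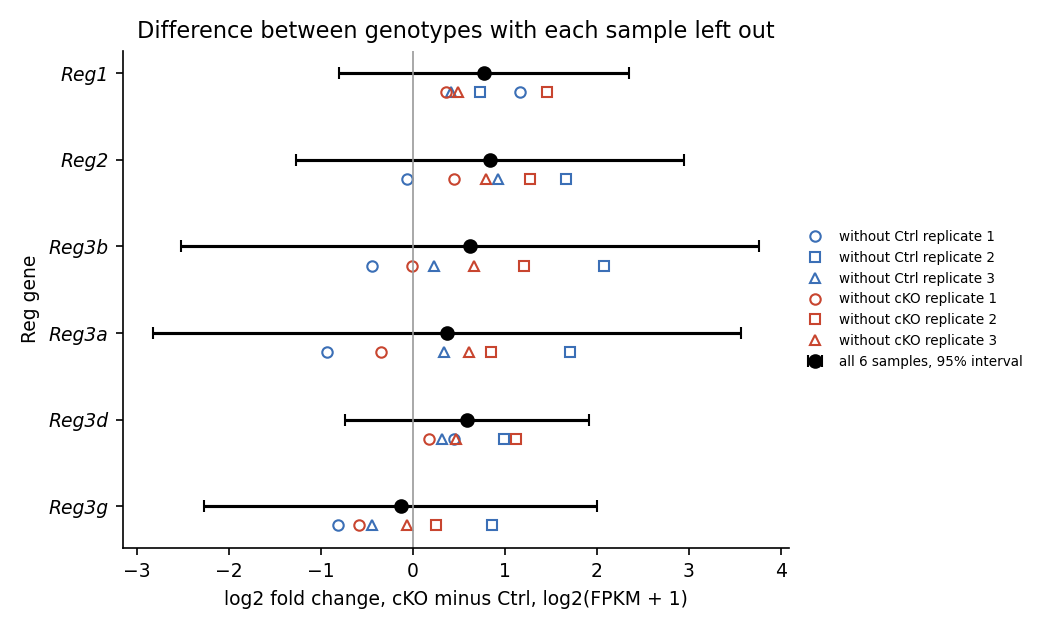
Log2 difference in log2(FPKM + 1), cKO minus Ctrl, for each Reg gene. Black points with bars are the estimate and 95% interval from all 6 samples, and open symbols are the estimate with 1 sample left out. Every interval spans 0, and the open symbols of *Reg2*, *Reg3a*, *Reg3b* and *Reg3g* lie on both sides of 0.

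Across the 6 samples the genes followed a pair of patterns that did not match the genotypes. *Reg1* and *Reg3d* went with the digestive enzymes. The summed FPKM of 33 acinar enzyme and zymogen genes came to 26774, 33485 and 13068 in Ctrl, to 57852, 15551 and 49127 in cKO, and had a 4.43-fold range, with overlapping groups. Over the 6 samples, log2(FPKM + 1) of *Reg1* had a Pearson's r of 0.914 with this sum (exact permutation p = 0.0139, adjusted 0.0365 over 21 relations; Spearman's rho 0.943, adjusted 0.0438), and 0.808 without the 2 samples farthest from the median. *Reg3d* had an r of 0.935 (exact permutation p = 0.00278, adjusted 0.0292; rho 1.0, adjusted 0.0292), and 0.878 without those 2 samples.

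*Reg2*, *Reg3a*, *Reg3b* and *Reg3g* went with each other. Their 6 pairs had r between 0.850 and 0.969 (exact permutation p adjusted over the 21 relations between 0.0292 and 0.0333). Without the 2 samples farthest from the median of the first gene, which were Ctrl replicates 1 and 2 for all 6 pairs, r stayed between 0.889 and 0.978. In the same 4 samples, however, *Reg3d* had an r of 0.982 with *Reg2* and of 0.975 with *Reg3b*, so there the 4 genes were not set apart from *Reg3d*. Spearman's rho was 0.829 to 1.0, and for *Reg3a* with *Reg3b* its adjusted exact permutation p was 0.136. With *Reg1* these 4 genes had r of only 0.043 to 0.210 (adjusted exact permutation p 0.762 to 0.947). *Reg3d* stood between, with r of 0.695 to 0.809 with the 4 genes and 0.743 with *Reg1*, none of which passed adjustment (exact permutation p adjusted over the 21 relations 0.149 to 0.269). By rank, *Reg3d* and *Reg1* did pass, with a rho of 0.943 (adjusted exact permutation p = 0.0438). Each genotype holds 3 samples, too few for a correlation within it.

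**Figure D3:**
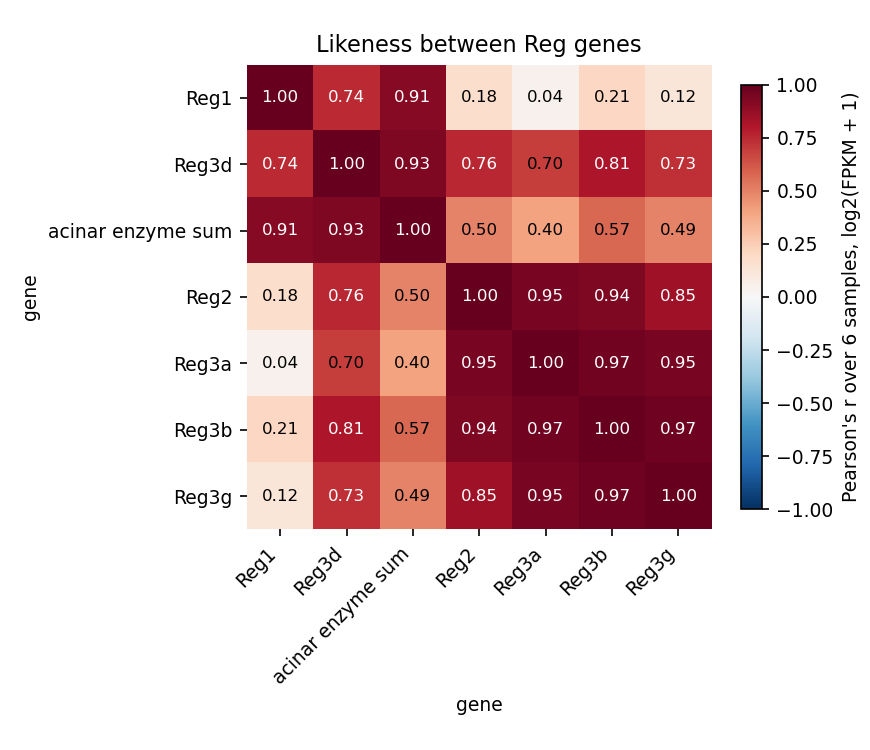
Pearson's r over the 6 samples between the log2(FPKM + 1) of each pair of Reg genes, and with the summed acinar enzymes. Red is positive. *Reg1* and *Reg3d* have r of 0.91 and 0.93 with the acinar sum, and *Reg2*, *Reg3a*, *Reg3b* and *Reg3g* form a block with r from 0.85 to 0.97.

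Taken per 1000 FPKM of the acinar sum, *Reg1* came to 37.1, 16.04 and 26.4 in the Ctrl samples and to 29.4, 24.1 and 29.1 in the cKO samples, a 2.32-fold range that was 1.54-fold without Ctrl replicate 2. *Reg3d* came to 0.572, 1.01 and 0.959 in Ctrl and to 0.892, 0.842 and 0.692 in cKO, a 1.76-fold range. Both ranges were narrower than those of the FPKM themselves.

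The other 4 genes kept most of their range after this division. *Reg2* came to 2.25, 20.05 and 18.5 per 1000 acinar FPKM in Ctrl and to 11.4, 13.4 and 8.39 in cKO, an 8.91-fold range that narrowed to 2.39-fold without Ctrl replicate 1. *Reg3b* came to 0.172, 5.48 and 1.01 in Ctrl and to 1.55, 1.004 and 0.703 in cKO, a 31.8-fold range. The ranges of *Reg3a* and *Reg3g* were 45.5-fold and 42.2-fold. Without Ctrl replicate 1 they were 10.6-fold and 10.4-fold, and that of *Reg3b* was 7.80-fold. Without Ctrl replicate 2 they were 16.5-fold, 9.94-fold and 8.97-fold. In the 4 samples other than these, *Reg2* and *Reg3b* also followed the acinar sum, with r of 0.937 and 0.929, against 0.496 and 0.574 over all 6. *Reg3a* had an r of 0.685 there, against 0.401 over all 6. For *Reg3g*, whose 2 farthest samples were Ctrl replicate 2 and cKO replicate 1, r was 0.308 without them, against 0.494. That set of samples keeps Ctrl replicate 1, so this r cannot be set beside those of *Reg2*, *Reg3a* and *Reg3b*. Per 1000 acinar FPKM, *Reg3g* was at 0.0081 and 0.342 in Ctrl replicates 1 and 2. In the other samples it was at 0.033 to 0.0805. For *Reg2*, the wide range of the ratio rested on Ctrl replicate 1, as it stayed 8.235-fold without Ctrl replicate 2. For *Reg3a*, *Reg3b* and *Reg3g*, the range narrowed without either of Ctrl replicates 1 and 2. Between genotypes the log2 ratios to the acinar sum differed by -0.35 to 0.21, with exact two-sided permutation p from 0.8 to 1.0. In bulk RNA, fewer cells of a type and less RNA per cell cannot be told apart.

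**Figure D4:**
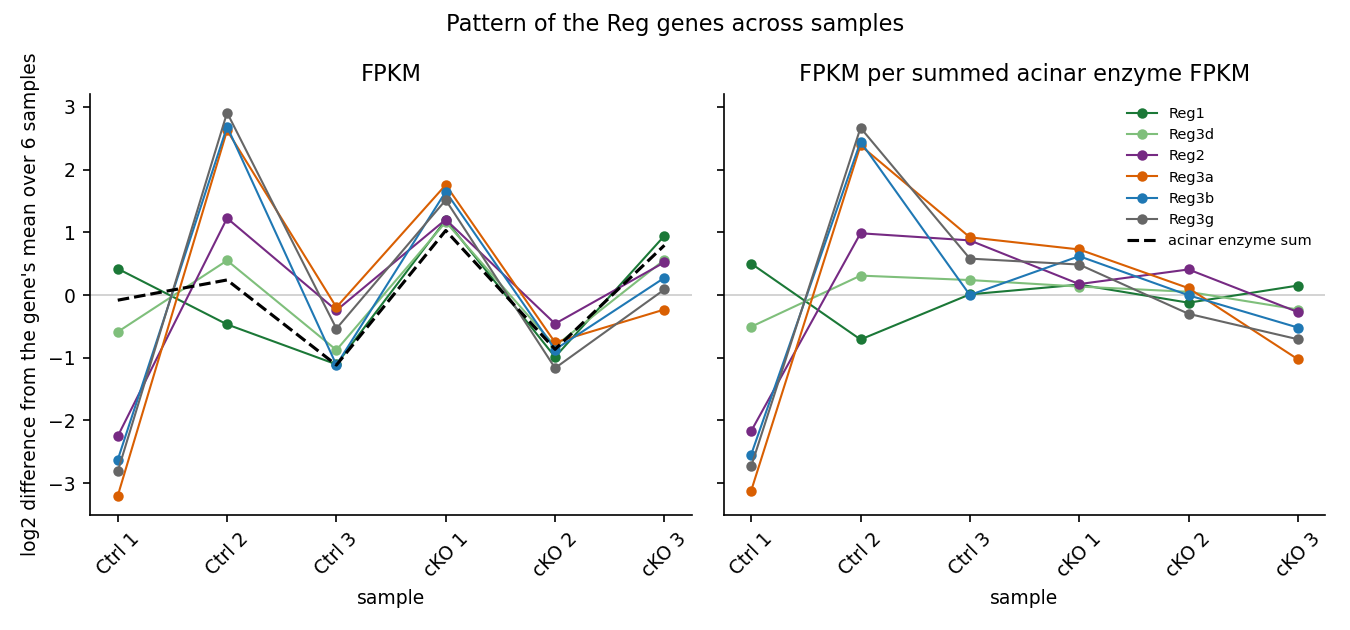
Log2 difference of each Reg gene from its own mean over the 6 samples, for FPKM (left, with the summed acinar enzymes dashed) and for the ratio of FPKM to the acinar sum (right). On the right, *Reg1* and *Reg3d* lie within 1 log2 unit of 0 in every sample, while *Reg2*, *Reg3a*, *Reg3b* and *Reg3g* are more than 2 units below 0 in Ctrl replicate 1 and, apart from *Reg2*, more than 2 above in Ctrl replicate 2.

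The genes closest in pattern to each member were taken among those with a mean of at least 1 FPKM. They rest on the same 6 samples as the correlations, so they describe the patterns and do not test them. Among the nearest to *Reg1* were *Spink1*, the trypsin inhibitor of zymogen granules (r = 0.994), *Cpb1*, carboxypeptidase B (0.989), *Slc17a9* (0.989) and *Try4*, a trypsin (0.979). Nearest to *Reg3d* were *Gm18284* (0.995), *Ggt1* (0.987), *Tff2*, a trefoil peptide of mucus-making epithelia (0.986), *Cel*, the bile salt-stimulated lipase (0.986), and *Cela2a*, an elastase (0.986). Of the 32 acinar enzyme genes at that level, 17 were among the 100 genes most like *Reg1* and 14 among those most like *Reg3d*.

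None of the 32 was among the 100 genes most like *Reg2*, *Reg3a*, *Reg3b* or *Reg3g*. Nearest to *Reg2* were *B630019K06Rik* (0.985), *Mlf2* (0.984), *Npepl1* (0.982), *Syndig1l* (0.979) and *Stub1*, a ubiquitin ligase of the chaperone system (0.974). Nearest to *Reg3a* were *Zfp746* (0.988), *Fam57a* (0.984), *Spint2*, a serine protease inhibitor (0.983), *Hist1h4c* (0.974) and *Tax1bp3* (0.972). Nearest to *Reg3b* were *Coq9*, of coenzyme Q synthesis (0.996), *Zfp746* (0.992), *Hpn*, a membrane serine protease (0.986), *Cops7a*, of the COP9 signalosome (0.983), and *Dnajc4* (0.983). *Reg3g* shared *Cops7a* (0.993) and *Dnajc4* (0.980) with *Reg3b*, followed by *Ppcdc* (0.976), *Gm40466* (0.972) and *Reg3b* itself (0.969). With 6 samples, between 19 and 30 genes reached an r over 0.95 with each member, so that a place in these lists is a description only.

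Likeness in expression did not follow likeness in sequence throughout. *Reg1* and *Reg2*, the closest coding sequences and carriers of the same upstream arrangement, had an r of 0.176. *Reg2* matched *Reg3a*, *Reg3b* and *Reg3g* at 58.5% to 61.6% of coding bases and had r of 0.850 to 0.947 with them. *Reg3b* and *Reg3g*, close both over the coding sequence and upstream, had the highest r of all pairs, 0.969, although *Reg3g* lies at the far end of the cluster from *Reg3b*. *Reg3a* and *Reg3b* had nearly the same r, 0.9675, with an upstream identity of only 47.9%. The protein-coding gene nearest to the cluster, *Ctnna2*, 390957 bases away, was at 1.09 to 1.78 FPKM in all samples.

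Genes that act upstream of the Reg3 members in other tissues were described from a list of 30 cytokines, receptors and signal carriers of the IL-6 and IL-22 families, with the inflammatory IL-1, IL-17 and TNF genes. Of 27 tested, 6 had a higher and 21 a lower mean in cKO, against 46.5% of all genes with the higher mean. The median log2 difference was -0.12, against -0.01 for all genes tested. The groups did not overlap for 3 of the 27, against 13.1% of all genes. None of the 27 passed adjustment. At an unadjusted p under 0.05, 0 were higher and 1 was lower, near the 3.07% of all genes. It was *Il1r1*, an interleukin-1 receptor, with 50.1, 49.8 and 58.5 FPKM in Ctrl and 34.0, 30.5 and 40.2 in cKO (log2 difference -0.59, SE 0.125, limma adjusted p = 0.392).

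The carriers of the signal were present in every sample and had narrower ranges than the Reg3 genes. *Stat3*, the transcription factor of this pathway, was at 15.3 to 20.8 FPKM and *Il6st*, the shared receptor chain gp130, at 7.82 to 10.8. *Socs3*, a feedback inhibitor that STAT3 induces, was at 44.0, 34.0 and 44.95 FPKM in Ctrl and at 25.8, 45.8 and 30.6 in cKO (log2 difference -0.29, SE 0.221, limma adjusted p = 0.820). The ligands were near 0 in most samples. *Il6*, named here for its known role, reached 1.72 FPKM in Ctrl replicate 1 and was at 0 to 0.166 FPKM elsewhere. *Il22* was at 0 to 0.286 FPKM and *Il17a* at 0 in all samples. The part of this pathway in the levels of the Reg3 genes was not tested.

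*Extl3*, an exostosin-family glycosyltransferase that has been reported as a receptor for REG proteins, was at 5.92, 7.53 and 7.32 FPKM in Ctrl and at 9.94, 8.58 and 9.31 in cKO. The 2 groups did not overlap, and the log2 difference of 0.38 (SE 0.113) had an unadjusted limma p of 0.0136 and an adjusted p of 0.545. Of the 5 exostosin genes tested, 5 had the higher mean in cKO, against 46.5% of all genes, and 3 did not overlap, against 13.1%. The same 3 were higher at an unadjusted limma p under 0.05, against 4.33% of all genes. The other 2 of these were *Ext1*, a subunit of the heparan sulfate polymerase (log2 difference 0.57, SE 0.179, limma adjusted p = 0.547), and *Extl2* (0.24, SE 0.081, limma adjusted p = 0.590). Neither *Extl3* nor the others passed adjustment.

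Defence genes beyond the family were read beside the Reg3 members. Of 20 acute-phase and mucosal defence genes tested, 3 had the higher and 17 the lower mean in cKO, with 0 higher and 3 lower at an unadjusted p under 0.05 and a median log2 difference of -0.28. Of all genes tested, 46.5% had the higher mean in cKO and 3.07% were lower at that p. *Defb1*, an epithelial defensin, was at 40.1, 39.8 and 51.8 FPKM in Ctrl and at 22.3, 27.4 and 22.8 in cKO (log2 difference -0.83, SE 0.136, limma adjusted p = 0.302). The other 2 were the liver plasma protein genes *Orm1* and *Fgg*, with log2 differences of -1.27 and -1.30 (limma adjusted p = 0.496 and 0.663).

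Ctrl replicate 1 stood apart in this list. The calgranulin genes *S100a8* and *S100a9*, made chiefly by neutrophils, were at 281 and 451 FPKM there and at no more than 17.05 and 26.6 FPKM in the other 5 samples. The summed FPKM of 14 leukocyte markers was 112 in that sample, 26.5 and 32.9 in the other Ctrl samples and 27.8 to 45.9 in the cKO samples, and 0 of the 14 markers were at 0 in all samples. The sample richest in leukocyte and neutrophil transcripts was therefore the lowest in *Reg2*, *Reg3a*, *Reg3b* and *Reg3g*. The part of these cells in the result was not tested.

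Of 14 genes of acinar stress and injury tested, 9 had the higher and 5 the lower mean in cKO, with 1 higher (*Hspb1*, a small heat shock protein, log2 difference 0.57, limma adjusted p = 0.583) and 0 lower at an unadjusted p under 0.05, against 46.5% of all genes with the higher mean and 4.33% higher at that p. *Dmbt1*, a scavenger receptor secreted by mucosal epithelia, was at 22.2, 106 and 32.0 FPKM in Ctrl and at 124, 23.8 and 77.3 in cKO. Like *Reg3d*, it was high in cKO replicates 1 and 3 and in Ctrl replicate 2.

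The markers of other cells were read beside the family because the Reg genes are made by several of them. All 33 acinar enzyme genes had reads and had the higher mean in cKO, against 46.5% of all genes, with a median log2 difference of 0.58, close to the 0.59 of *Reg3d* and below the 0.77 of *Reg1*, yet 1 of them (*Ctrc*, log2 difference 0.90, SE 0.256, limma adjusted p = 0.518) had an unadjusted p under 0.05 and the sums overlapped. The 6 acinar transcription factors also had the higher mean in cKO, with a median of 0.30 and 0 at an unadjusted p under 0.05. Their sums, dominated by *Xbp1*, were 97.8 to 134 FPKM in Ctrl and 144 to 177 in cKO. Taken singly, *Xbp1* overlapped between the groups, as did *Bhlha15*, *Rbpjl* and *Gata4*. Of the 6 factors, 1 did not overlap, against 13.1% of all genes. These lists were chosen with results of these samples known, and their part in the values of *Reg1* and *Reg3d* was not tested.

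The counts of the remaining lists are to be read against all genes tested, of which 46.5% had the higher mean in cKO, 4.33% were higher and 3.07% lower at an unadjusted p under 0.05. Of 10 ductal markers tested, 6 had the higher and 4 the lower mean in cKO, with *Cftr* higher and *Krt7* lower at an unadjusted p under 0.05. The 10 stromal and endothelial markers were all higher in mean in cKO, 3 of them at an unadjusted p under 0.05 (*Col3a1*, *Cdh5* and *Plvap*). Of 14 leukocyte markers, 3 had the higher and 11 the lower mean, with *Cd79a*, of B cells, lower at an unadjusted p under 0.05.

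Of 9 β-cell markers, 2 had the higher and 7 the lower mean in cKO. *Ucn3*, a marker of mature β cells, was lower at an unadjusted p under 0.05, and its groups overlapped. The groups did not overlap for 3 of the 9, against 13.1% of all genes. *Ins2* was lower in cKO (154877 to 178676 FPKM in Ctrl, 109030 to 132945 in cKO). So was *Iapp* (17011 to 23853 and 13486 to 14450), while *G6pc2* was higher (992 to 1266 and 1422 to 1476). For *Ins2* limma gave a log2 difference of -0.46 with an SE of 2.87, wider than the spread of its samples. The sums of the 9 markers were 235639 to 275948 FPKM in Ctrl and 195134 to 217318 in cKO, so the samples were islets by their markers. Of 10 markers of other endocrine cells, 8 had the higher and 2 the lower mean in cKO. Of 3 gut epithelial markers tested, 1 had the higher and 2 the lower mean, and none had an unadjusted p under 0.05. *Tff3* and *Lypd8* were at 13.4 and 6.32 FPKM in Ctrl replicate 3 and at no more than 0.35 and 0.297 elsewhere. In that sample *Reg3a*, *Reg3b* and *Reg3g* were at neither end of their range, and *Reg3d* was at its lowest. The part of gut tissue in these levels was not tested. None of the genes of these lists passed adjustment.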

How the data were processed

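RNA-seq of islets from 3 Ctrl and 3 cKO samples was used, grouped by the GEO labels. Per the labels and the study's methods, the authors used TRIzol for total RNA, a SMARTER mRNA-Seq kit for the libraries and DESeq2 for the comparison. The aligner and counter are not given in the sources used here. The authors deposited FPKM per gene and sample, with GRCm38 coordinates. Values were whole multiples of 1 read in 100% of cases (tolerance 0.01 reads), which gave the depth of 16289408 to 17944775 reads on genes.

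Genes with a mean of at least 0.1 FPKM were compared on log2(FPKM + 1) with limma 3.58.1 in R 4.3.3 (two-sided, empirical Bayes with a trend, Benjamini-Hochberg adjustment over 21211 genes). A fold change on this scale understates that of low genes. The fit was tested on simulated data. All 7 Reg genes, the 5 genes most like each, the 4 highest genes of each of 12 lists, genes of a list at an unadjusted p under 0.05 and the neighbouring genes could be named, and a few of these are not reported here. *Il6*, *Il22*, *Il17a*, *Stat3*, *Il6st*, *Tff3* and *Lypd8* were singled out beyond that, after their values were seen or for their known role. Members and lists were chosen with earlier results of these data known. Promoter windows are from RefSeq (GRCm38.p6), and all 7 Reg genes matched. Coding sequences and transcripts are from GENCODE M21.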

Additional observations from a re-analysis of the deposited data

How the results depend on the processing

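The log2 differences of the 6 Reg genes and the counts of genes were recomputed under 16 alternatives each. The correlations, likeness lists, spreads and gene lists were not. *Reg1* and *Reg3d* kept a positive log2 difference under all of them, and no Reg gene passed adjustment under any (limma). Sample weights turned *Reg3a* to -0.99 and *Reg3b* to -0.73, left 3 Reg genes with the higher mean in cKO in place of 5, and raised the genes lower in cKO at an unadjusted p under 0.05 from 651 to 1245. *Reg3g* turned positive with a pseudocount of 0.1 (0.17) or 0.01 (0.28) and with voom on the reads (0.35). Median-of-ratios scaling had factors of 1.003 to 1.005 in every sample, so that alternative could change little. Leaving out each sample in turn gave log2 differences of 0.36 to 1.45 for *Reg1*, -0.067 to 1.66 for *Reg2*, -0.93 to 1.71 for *Reg3a*, -0.44 to 2.08 for *Reg3b*, 0.17 to 1.12 for *Reg3d* and -0.82 to 0.86 for *Reg3g*. *Reg3a* and *Reg3b* turned to -0.35 and -0.012 without cKO replicate 1, and *Reg3g* to 0.25 without cKO replicate 2. The Reg genes with the higher mean in cKO then numbered 2 to 6. Those at an unadjusted p under 0.05 numbered 0 to 2 (*Reg3b* without Ctrl replicate 2, *Reg1* and *Reg3d* without cKO replicate 2). Of all genes, 0 to 14 passed adjustment, the 14 without Ctrl replicate 1, and 401 (without cKO replicate 3) to 1142 (without Ctrl replicate 1) were lower in cKO at an unadjusted p under 0.05. The causes were not tested.

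With the replicate number as a replicate block, 737 genes were higher and 538 lower in cKO at an unadjusted p under 0.05, 0 passed adjustment and the Reg differences stayed as reported (*Reg1* 0.77). Same-numbered samples deviated from their group means with correlations of -0.17, -0.022 and -0.065, so no sign of a pairing by number was seen. Such values cannot exclude one. Leaving out each sample for the ratios to the acinar sum was chosen after seeing the data. Depth limits *Reg3g* and *Reg4*, whose counts were as low as 8 and 0 reads.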
